A study of Mus musculus with 6 samples.

Results

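B2m, the gene for beta-2-microglobulin, was measured in mouse cortex on a single-colour Agilent array, where 1 of 60915 probe names carries its RefSeq accession and was printed as 20 spots on each array. Most other probes have design codes that are not paired with genes here, so further probes for B2m among them are not known. The spots were taken by the probe name that the files pair with the RefSeq transcript NM_009735.3, which gives 120 spots over 6 arrays. B2m is 1 of only 15 genes that a probe of this array names by a RefSeq transcript, and it was chosen by these same arrays, as the one among them with the largest difference in level between the groups. That difference is therefore given as a description, with no test.

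The study asked how gene expression in mouse brain changed after an ischemic stroke. The mice were males aged 8 weeks. In 3 of them the middle cerebral artery was occluded transiently (tMCAO), and they were killed 12 h after reperfusion. The other 3 had sham surgery. RNA came from the cortex of each mouse, which the protocol calls ischemic without setting sham mice apart, and ribosomal RNA was removed before labelling with Cy3 by random priming. The labels used here name no strain, allele, length of occlusion or time of killing for sham mice. Each array is 1 sample, and the arrays of a group are called Sham 1 to 3 and tMCAO 1 to 3 by the replicate numbers of the labels.

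Beta-2-microglobulin is the small, invariant light chain of class I major histocompatibility (MHC) molecules. It binds the heavy chain without a covalent bond, and without it most class I molecules do not fold stably or reach the cell surface, where they present peptides to CD8+ T cells. It also pairs with class I-like proteins such as the neonatal Fc receptor and the iron regulator HFE. Class I genes are low in most resting neurons and higher in microglia and endothelial cells, and interferons and NF-kB signalling raise them in many cell types. The B2m transcript is also widely used as a reference gene in quantitative PCR.

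The region in front of the gene is shown because interferon and NF-kB elements in it are the textbook route of B2m induction. The arrays measured RNA levels and no binding, so they do not bear on which element was in use. The sequence below is the 250 bases upstream of the B2m start in RefSeq (build GRCm38.p6, chr2:122147437-122147686, plus strand), written 5′ to 3′. Capitals mark, from left to right, a match to the interferon-stimulated response element, to the NF-kB consensus and to the CCAAT box.
B2m upstream region: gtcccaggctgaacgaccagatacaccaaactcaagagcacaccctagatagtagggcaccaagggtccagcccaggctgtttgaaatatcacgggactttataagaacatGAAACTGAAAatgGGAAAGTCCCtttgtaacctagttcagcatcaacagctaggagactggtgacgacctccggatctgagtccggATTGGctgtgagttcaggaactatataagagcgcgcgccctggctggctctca
The first match, GAAACTGAAA, begins 139 bases before the start and fits the searched letters GAAANNGAAA, which occurred in 2.98% of 32851 promoters when both strands were searched. The NF-kB consensus matched on the minus strand, beginning 126 bases before the start and without overlapping the first match, and was present in 7.25% of the promoters. The CCAAT box, also on the minus strand and 53 bases before the start, was present in 33.8%. The letters TTCNNNGAA of the gamma-activated site were not found in this window, against 7.02% of promoters with a match. A match is a stretch of letters and not a shown binding site.

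B2m gave a strong signal on every array. All 120 spots were well above background and 0 were saturated. The median processed signal over the 20 spots was 24073, 24699 and 28599 intensity units on Sham 1, 2 and 3, and 57403, 59064 and 30868 on tMCAO 1, 2 and 3. The brightest spot, at 61516 units, was far under the scanner's saturation value of 778126. On the median spot, the signal was 926 to 1105 times its local background in sham and 1215 to 2198 times in tMCAO. The tMCAO spots were thus all bright, but tMCAO 3 was little brighter than Sham 3 before the arrays were scaled.

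The arrays differed in overall brightness. The 75th percentile of the processed signal over all non-control spots was 555.5, 605.9 and 705.5 units on Sham 1, 2 and 3 and 934.6, 918.6 and 537.2 on tMCAO 1, 2 and 3, so that tMCAO 3 was the dimmest array and tMCAO 1 and 2 the brightest. Every level below is therefore the log2 processed signal minus the log2 of that percentile on the same array. Across all probes tMCAO 3 also stood nearer to sham than its group did: its r with each sham array was 0.9925, against 0.9922 with tMCAO 1 and 0.9906 with tMCAO 2. All 6 arrays belong to 1 scan, as the file headers give it.

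After this scaling, B2m lay higher on every tMCAO array than on every sham array. Its level was 5.44, 5.35 and 5.34 on Sham 1, 2 and 3, and 5.94, 6.01 and 5.85 on tMCAO 1, 2 and 3, as the mean of the spots without an outlier mark. The lowest tMCAO array exceeded the highest sham array by 0.42 log2 units. The group means were 5.38 with an SD of 0.05 in sham and 5.93 with an SD of 0.08 in tMCAO (n = 3 arrays per group). They lay 0.56 ± 0.05 log2 units apart (SE), a 1.47-fold higher signal after tMCAO. Over the 9 pairs of 1 tMCAO and 1 sham array it ran from 0.42 to 0.67 log2 units, or from 1.34-fold to 1.59-fold. Without tMCAO 3 the difference was 0.60. A bulk sample cannot tell apart more cells that express B2m and more B2m RNA per cell.

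The same values over all probes give the background. Of 44292 probes with enough signal to be tested, 11.6% had all tMCAO arrays above all sham arrays and 13.1% had them all below. By limma, 1.23% were called higher and 0.187% lower at an adjusted p under 0.05. Since this contrast chose B2m, nothing is read from these shares. The difference of B2m was reached or exceeded by 2018 probes (4.56%), while the median difference over all tested probes was -0.05. The spread of B2m between arrays of a group was narrow. Its SD, pooled over the groups, was 0.07 log2 units against a median of 0.17 over the 44103 probes with a value on every array, and 4.41% of these had an SD as small or smaller. Because B2m averages 18 to 20 spots and nearly all other probes have 1 spot, these SDs are not of equal make.

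**Figure D1:**
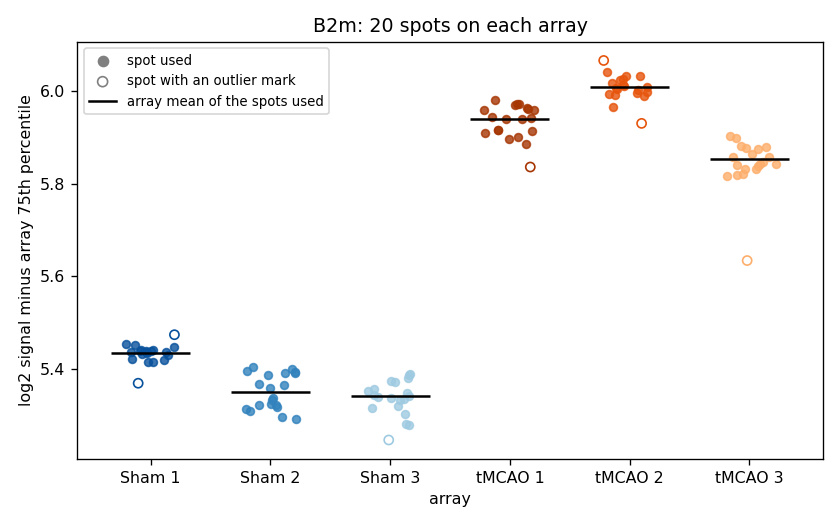
Level of B2m (log2 processed signal minus the 75th percentile of the array) in each of the 20 spots on the 3 sham and 3 tMCAO arrays. Filled points are spots used, open points carry an outlier mark, and bars are array means of the spots used. The lowest tMCAO spot, at 5.63 on tMCAO 3, lies above the highest sham spot, at 5.47 on Sham 1.

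The 20 spots of an array read the same labelled RNA, so their spread measures printing, hybridization and scanning, not differences between mice. From the lowest through the median to the highest spot, the level was 5.37, 5.44 and 5.47 on Sham 1, 5.29, 5.35 and 5.40 on Sham 2, and 5.25, 5.34 and 5.39 on Sham 3. The same values were 5.84, 5.94 and 5.98 on tMCAO 1, 5.93, 6.01 and 6.07 on tMCAO 2, and 5.63, 5.84 and 5.90 on tMCAO 3. No tMCAO spot was as low as any sham spot, the nearest being 5.63 on tMCAO 3 and 5.47 on Sham 1. The coefficient of variation of the processed signal over the 20 spots was 1.41%, 2.64% and 2.59% on Sham 1, 2 and 3 and 2.51%, 1.95% and 3.65% on tMCAO 1, 2 and 3. The error that the scanner software assigned to each of these spots averaged 10.0% on every array, whatever the spread over its spots. The 2 measures are therefore not compared.

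The spread over spots was smaller than the spread over arrays, and both were much smaller than the difference between the groups. The SD over the spots used, pooled over arrays, was 0.028 log2 units, and the SD between arrays of a group was 2.37 times as large. Leaving out marked spots narrows the SD over spots. With them kept, it ran from 0.020 on Sham 1 to 0.055 on tMCAO 3, and no pooled value was computed. The difference between the groups was 20.1 times the SD over spots and 8.49 times the SD between arrays. These multiples hold for this scale only. In sham and tMCAO, the SD between arrays was 0.05 and 0.08 here and 0.04 and 0.19 with the median as scale. It was 0.09 and 0.013 with quantile normalization and 0.13 and 0.52 without scaling. The 0.013 is under the 0.028 given above, which was not recomputed on that scale. With the spots averaged, the standard error of an array's level from its spots was 0.0027 to 0.0085. Arrays of the same group differed by more than that. Sham 1 lay 0.084 above Sham 2 and 0.094 above Sham 3, against errors over spots of 0.0089 and 0.0078, whereas Sham 2 and Sham 3 differed by 0.0095 with an error of 0.011. In tMCAO the widest pair was tMCAO 2 and tMCAO 3, at 0.15 with an error of 0.0075. The error over spots leaves out the choice of scale. After quantile normalization tMCAO 2 and tMCAO 3 read 15.31 and 15.33, and with the median as scale 8.67 and 8.30.

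The spread over spots was also compared between the groups, because it played no part in the choice of B2m. The SD over the spots used was 0.011, 0.038 and 0.032 on Sham 1, 2 and 3 and 0.029, 0.019 and 0.026 on tMCAO 1, 2 and 3. Among these, Sham 1 was the tightest array and Sham 2 the widest, and the groups overlapped. The mean over 3 sham arrays was 0.027 ± 0.014 and that over 3 tMCAO arrays 0.025 ± 0.006 (± SD; two-sided exact permutation p = 0.8, adjusted p = 0.8 over 3 measures). With the marked spots kept, tMCAO 3 was the widest array, at 0.055, and the difference in mean SD turned from -0.0024 to 0.0080 (exact permutation p = 0.6). The local background around the B2m spots averaged 25.7 ± 0.2 units for sham arrays and 25.9 ± 0.6 for tMCAO arrays (± SD; exact permutation p = 0.8, adjusted p = 0.8). The SD of the pixels in that background averaged 9.71 ± 0.57 units for sham arrays and 10.8 ± 1.6 for tMCAO arrays (± SD; exact permutation p = 0.5, adjusted p = 0.8). With 3 arrays against 3 no such test can go below 0.1, and these values do not show that the measures were equal.

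Part of the spread over spots belonged to the place of the spot. The 20 positions are the same on every array, and the marked spots are included in this paragraph. Some share of the sum of squares falls to position even where place has no effect, and that share was not estimated. Position accounted for 44.4% of the sum of squares within arrays, and for 0.739% of the total sum of squares, of which the group accounted for 94.4% and the arrays within a group for 3.91%. One position, in row 356 and column 150, was the lowest of the 20 on 5 of the 6 arrays, Sham 2 being the exception. On average it read 0.082 log2 units under its array's mean, while the next lowest position read 0.033 under. The scanner software marked it as an outlier on those same 5 arrays, and 2 further spots of other positions were marked. Without this position, 34.6% of the sum of squares within arrays lay between positions. The correlation of spot deviations between 2 arrays had a median of 0.50 over the 15 pairs of arrays (range -0.27 to 0.73, 20 positions that share the array surface), and of 0.22 without that position.

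Each position also holds its own comparison of the groups, although the 20 comparisons share the same 6 arrays. At 20 of 20 positions the 3 tMCAO spots lay above the 3 sham spots. That count was settled beforehand, because the lowest of all tMCAO spots lay above the highest of all sham spots. The mean difference ran from 0.46 to 0.59 log2 units, and the distance from the lowest tMCAO spot to the highest sham spot from 0.24 to 0.49.

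**Figure D2:**
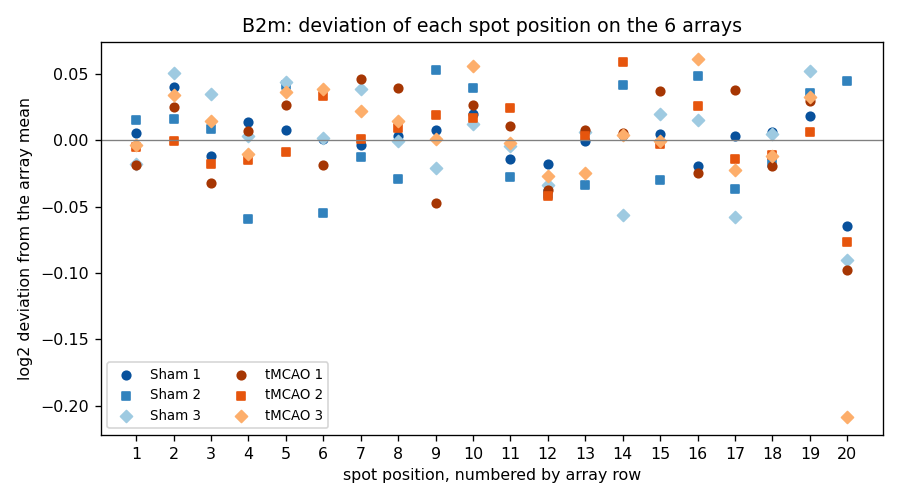
Deviation of each B2m spot from the mean of its array (log2 units), by spot position numbered from the lowest to the highest array row, for the 3 sham and 3 tMCAO arrays. The last position reads low on every array but Sham 2, and its deviation averages -0.082 over the 6 arrays.

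The file headers carry a code of 2 numbers for each array, which is read here as its row and column on the slide, although the headers do not say so in words. In row 1 by this reading, which held 2 sham and 2 tMCAO arrays, B2m differed by 0.58 log2 units, and in row 2, which held Sham 3 and tMCAO 3, by 0.51. The direction was the same in both, and row 2 had no replicate. By the same reading, tMCAO 1 and 2 lay in columns 1 and 2 of row 1, and Sham 1 and 2 in columns 3 and 4. In row 2, Sham 3 lay in column 1 and tMCAO 3 in column 2. Within row 1 the column cannot be told apart from the group, and its part was not tested.

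The size of the difference depended on how the arrays were put on a common scale, while its direction did not. With the median in place of the 75th percentile the difference was 0.62 ± 0.11 log2 units (SE), and tMCAO 3 lay lowest of the tMCAO arrays. Quantile normalization gave 0.44 ± 0.05 (SE). The authors' deposited table gave B2m at 14.96, 14.79 and 14.84 on Sham 1, 2 and 3 and at 15.30, 15.32 and 15.32 on tMCAO 1, 2 and 3, in log2 units. Computed from those values, the difference was 0.45 ± 0.05 (SE), or 1.37-fold. Once sorted, the 6 columns of that table differed at the same rank by a median of 0.0012 log2 units, nearly as quantile normalization leaves them. The order of the tMCAO arrays changed with the scale: tMCAO 3 was lowest with the 75th percentile, and after quantile normalization, at 15.33, it was highest. With no scaling at all the levels were 14.55, 14.59 and 14.80 on Sham 1, 2 and 3 and 15.81, 15.85 and 14.92 on tMCAO 1, 2 and 3, a difference of 0.88 ± 0.31 (SE). The groups did not overlap under any of these scales, but without scaling only 0.12 log2 units separated tMCAO 3 from Sham 3.

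**Figure D3:**
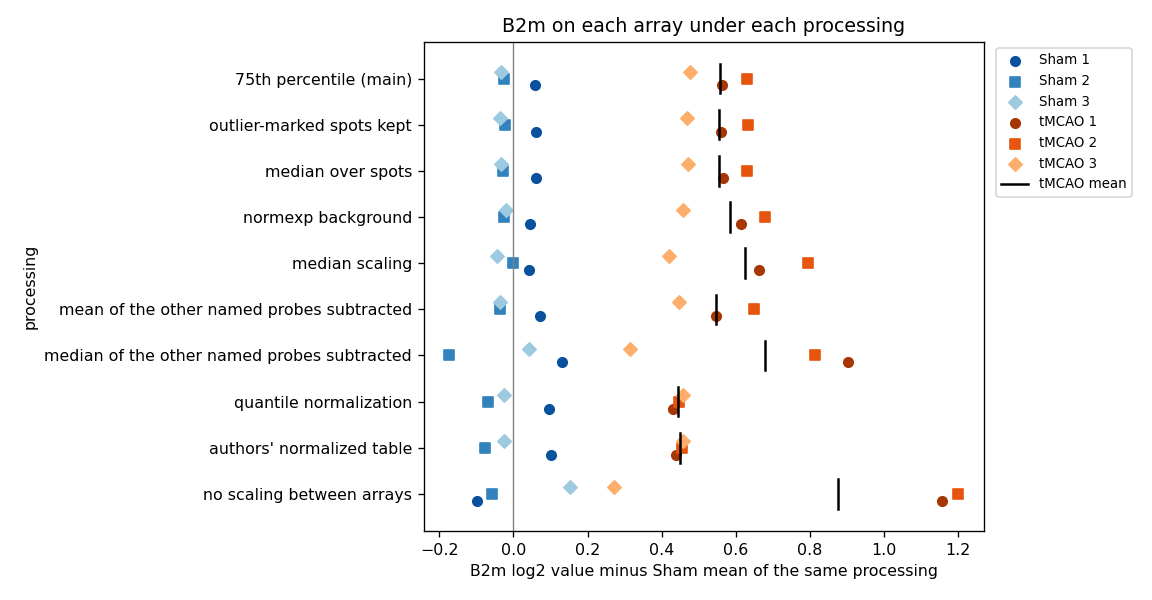
B2m on each array (log2 value minus the sham mean of the same processing) for 10 ways of processing, with 3 sham arrays in blue, 3 tMCAO arrays in orange and the tMCAO mean as a bar. The tMCAO means lie between 0.44 with quantile normalization and 0.88 without scaling, and the tMCAO arrays lie above the sham arrays in every line.

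B2m serves as a reference gene, and the array carries other genes used so, which allowed it to be read as a ratio within each array. Relative to Gapdh, a glycolytic enzyme, B2m was 0.65 ± 0.09 log2 units (SE) higher after tMCAO. Relative to Hprt, an enzyme of purine salvage, it was 0.65 ± 0.07 higher, and relative to the cyclophilin gene Ppia 0.66 ± 0.10 (SE). Against Actb, cytoplasmic beta-actin, the ratio was 0.72 ± 0.23 (SE) higher, with the wider error coming with an SD of 0.31 for Actb itself in tMCAO. The largest ratio change was against the tubulin gene Tuba1b, at 0.76 ± 0.10 log2 units (SE), or 1.70-fold. All of these ratios were without overlap between the groups. Each of these reference genes had a lower mean after tMCAO, with differences from -0.09 log2 units for Gapdh to -0.21 for Tuba1b. Their ratios therefore exceeded the B2m difference of 0.56.

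The ratio was smaller against genes whose own means were higher after tMCAO. Relative to Gusb, the lysosomal enzyme beta-glucuronidase, B2m differed by 0.10 ± 0.10 log2 units (SE), and the groups overlapped. Relative to Tfrc, the receptor for iron-bound transferrin, it differed by 0.28 ± 0.17 (SE), again with overlap. For Tbp, the TATA-binding protein, the value was 0.33 ± 0.12, and for the chaperone gene Hsp90ab1 0.40 ± 0.14 (SE), without overlap. Over the 14 references the median was 0.61 log2 units, and the groups did not overlap for 12 of them. All 14 ratios share the B2m values, by which the gene was chosen, so nothing is read from that count. For 1 of the 12, the glycerol kinase gene Gk, only 5 arrays had a value, because all its spots on tMCAO 2 carried an outlier mark. G6pd2 and Ldhal6b, also among the 12, read dim, with sham means of -1.02 and -2.09 against 5.38 for B2m. The ratios of B2m to G6pd2 and Ldhal6b were 0.56 and 0.76. A ratio within an array shows unequal change of 2 probes, not which of them changed. Which reference is used thus moved the value of B2m from 0.10 to 0.76.

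**Figure D4:**
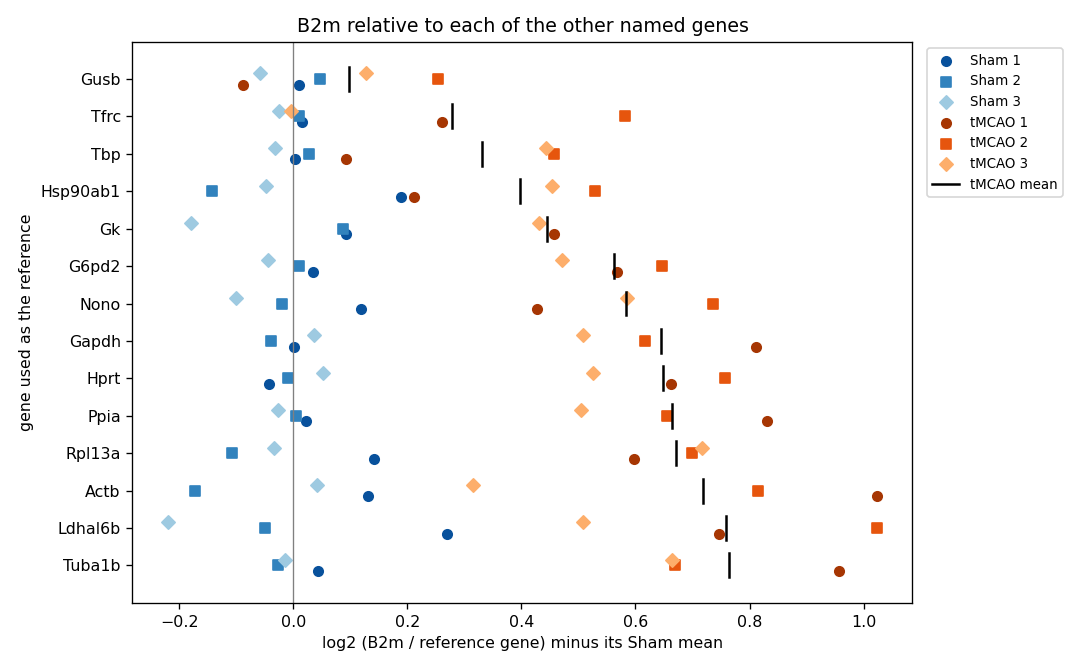
Log2 ratio of B2m to each of the other 14 named genes on each array, minus the mean ratio of the sham arrays, with 3 sham and 3 tMCAO arrays (2 for Gk) and the tMCAO mean as a bar. The bars run from 0.10 with Gusb to 0.76 with Tuba1b, and the groups overlap for Gusb and Tfrc.

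Probes whose values followed those of B2m over the 6 arrays were looked for by a fixed rule. Of the named genes, Gusb was most like it (Pearson r = 0.91), then Tbp (r = 0.70) and Tfrc (r = 0.63). Gusb was at 0.35, 0.23 and 0.33 on Sham 1, 2 and 3 and at 0.96, 0.68 and 0.66 on tMCAO 1, 2 and 3, so that its highest array was tMCAO 1 where that of B2m was tMCAO 2. Tbp overlapped between the groups, since tMCAO 3, at 0.68, lay under Sham 1, at 0.71. Tfrc was highest on tMCAO 3, at 7.25, which was the lowest tMCAO array for B2m. Among the 44102 other tested probes with a value on every array, ASMM10P004356 and ASMM10P033697 were closest in shape, each at a root mean square distance of 0.038 log2 units after centring (r = 0.99 for both). ASMM10P004356 read -0.63, -0.69 and -0.74 on Sham 1, 2 and 3 and -0.05, -0.10 and -0.18 on tMCAO 1, 2 and 3. ASMM10P033697 read -2.08, -2.15 and -2.13 on Sham 1, 2 and 3 and -1.59, -1.54 and -1.58 on tMCAO 1, 2 and 3. Neither probe overlapped between the groups. Both were picked as the closest to B2m, so this and the likeness in shape follow from that choice. Among the tMCAO arrays, ASMM10P004356 was lowest on tMCAO 3, as B2m was, but ASMM10P033697 was lowest on tMCAO 1. The genes behind these codes are not named here. The points of these correlations share 6 arrays in 2 groups, so that part of each r comes from the difference between the groups.

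**Figure D5:**
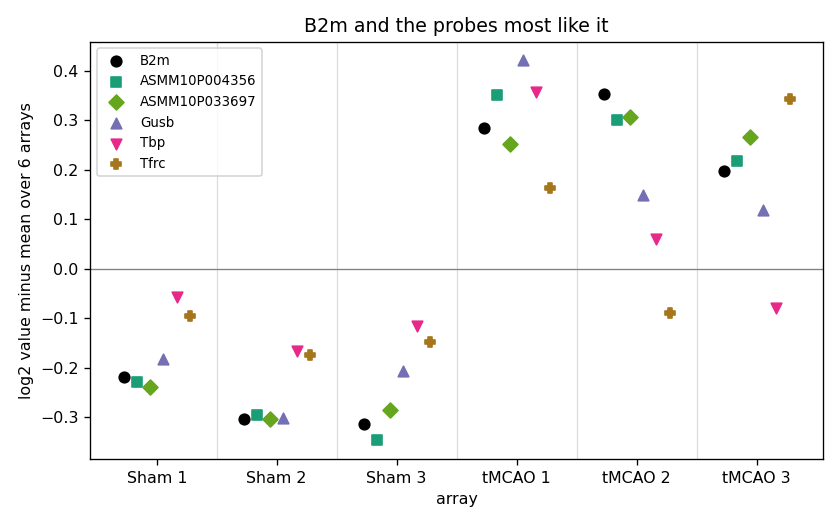
Log2 value minus its mean over the 6 arrays for B2m, the 2 probes closest to it and the 3 most similar named genes, on each sham and tMCAO array. The 2 coded probes, picked for their closeness, stay near B2m on every array. The 3 named genes part from B2m on several arrays, and each of them most on tMCAO 2.

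The partners of B2m could not be followed by name. Of a list of 27 genes of the class I pathway (heavy chains, peptide transporters, immunoproteasome subunits, chaperones and class I-like proteins), 0 carry a name on this array, and neither do any of 20 interferon-response genes. The same holds for 39 markers of 8 kinds of cell, among them microglia, neutrophils, T cells, endothelial cells and neurons. The labelled tissue was therefore not checked against its markers, and the part of cell makeup in the level of B2m was not tested. Brightness of the arrays, given above, moved partly with the groups, and its part in the difference was not tested beyond the scales reported.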

How the data were processed

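Per the submitters' processing notes, spots were quantified in Agilent Feature Extraction 11.0.1.1. The scanner tables hold intensity on a linear scale, background-subtracted by that software and not normalized between arrays, per the file headers. A second table deposited by the authors holds normalized log2 values, and its method and centring are not given in the sources used here. Spots with an outlier mark (7 of 120 for B2m) were removed and the rest averaged. The log2 signal was scaled to the array's 75th percentile over non-control spots, and 300 negative-named spots were left out. The probes tested were well above background on at least 3 arrays, with at least 2 values per group. They were fitted with limma 3.58.1 in R 4.3.3 (two-sided, Benjamini-Hochberg, threshold 0.05), also on simulated data. Single measures used exact permutation tests (SciPy 1.17.1). Names came from a RefSeq table of GRCm38.p6. The array design uses an older build, so no gene coordinates are given, and no probe sequence was used. The files hold no mean signal or spot pixel SD, so normexp (offset 50) and the spread without background subtraction used the median signal, and the pixel SD is that of the local background. B2m, the lists, the motifs and the tests were chosen with earlier results of these data known. Named genes were the 3 RefSeq-named genes with the highest Pearson r and the 2 other probes with the smallest distance, and all 15 RefSeq-named genes could be named. Alternatives were the scaling, background correction, spot summary, outlier marks, dim-probe filter, variance model, authors' table, replicate number as a block and each array left out. The slide row, the lowest spot position and the median of the other named probes as a scale were added after seeing the data. The labels give independent experiments and RNA from each mouse, with no litters, cages or surgery days, so p-values measure the spread between these samples.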

Additional observations from a re-analysis of the deposited data

How the results depend on the processing

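The B2m difference was above 0 under all 18 alternatives run, which reuse the same arrays. Not all of them could turn it, since leaving out an array cannot change the sign when the groups do not overlap. The difference moved by more than the SD between arrays with median scaling (0.62 log2 units), quantile normalization (0.44), the authors' table (0.45), the median of 13 other named genes as the scale (0.68) and no scaling (0.88). The median of the 13 genes was the value of Actb on every array but tMCAO 1, so that scale is nearly the ratio to Actb alone (0.72). The B2m difference lay between 0.52 and 0.60 with each array left out. The tMCAO minus sham difference in the spread over spots was -0.0024 and turned to 0.0080 with outlier-marked spots kept. It ran from -0.010 to 0.0030 with each array left out, being 0.0030 without Sham replicate 2, 5.3e-05 without Sham replicate 3 and 0.00066 without tMCAO replicate 2. Over all probes, 547 were higher and 83 lower after tMCAO (limma). These numbers were 330 and 40 with normexp and 244 and 19 with no filter on dim probes, and the number lower was 52 with median scaling and 155 with a trended robust variance. With each array left out they ran from 56 to 622 higher and from 4 to 225 lower, the lowest without tMCAO replicate 1 and the highest without tMCAO replicate 3. With replicate number as a block, 353 were higher and 35 lower, while the B2m difference (0.56) and that of the spread (-0.0024) kept their values by construction. Same-numbered arrays shared little beyond the number (correlations of 0.021, 0.095 and 0.13 over probes), and 3 of 6 arrays correlated best with their own number. No slide or scan block was possible, because all arrays belong to 1 scan. The presumed slide row holds equal numbers of both groups, so as a block it also leaves the B2m difference at 0.56 by construction. The presumed slide column was not used as a block, and within row 1 it cannot be told apart from the group. All B2m spots were well above background. The cause of these movements was not tested.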
